A study of Mus musculus with 6 samples.

Results

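DNA breaks were mapped by BrITL, in which free DNA ends receive a biotinylated nucleotide and the tagged fragments are captured on streptavidin beads for sequencing. The regions described here are peaks of vehicle-treated mouse embryonic fibroblasts that lay between protein-coding genes but near one. They were chosen by position: the summit lay in no protein-coding gene body and more than 1 kb but at most 20 kb from the nearest protein-coding gene end of the RefSeq table for GRCm38 (mm10). Summits in a peak-dense region of chromosome 15, from 60000001 to 62300000, were left out. The rule kept 494 of the 6444 peaks of the vehicle list. Of the others, 3682 had a summit at a protein-coding gene end (within 1 kb of it), 1292 lay deeper inside a gene body, 470 lay more than 20 kb from any such gene and 506 lay in the dense region.

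The study had 6 samples, all from ATR+/- mouse embryonic fibroblasts that were immortalised by passage and express Bcl-xL, an inhibitor of apoptosis. Vehicle cells had DMSO for 18 h, and treated cells had ATR-45 at 1 µM, which blocks the checkpoint kinase ATR, together with aphidicolin at 0.2 µM, which slows DNA polymerases, for 18 h. There were 2 pull-downs and 1 input for either condition. The ATR genotype, Bcl-xL and the immortalised line were shared by both conditions, so the vehicle cells are not wild-type cells. The authors deposited a peak list for each condition that pools its samples, so the values below carry no replicate error and no difference between conditions was tested. The files hold no expression, so the fibroblast label could not be checked against markers. In a mixed population, more broken cells and more ends per cell cannot be told apart.

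DNA between genes holds promoters of non-coding RNAs, enhancers and the short genes of structural RNAs. Transfer RNA (tRNA) genes and the 7SK gene are transcribed by RNA polymerase III. Most spliceosomal small nuclear RNA (snRNA) genes are transcribed by RNA polymerase II, and U2 genes can lie in arrays. Long non-coding RNA (lncRNA) genes are also polymerase II genes, and some carry microRNAs (miRNAs) or small nucleolar RNAs (snoRNAs) in their transcripts. Free DNA ends can come from the action of topoisomerases, from transcription and from replication, and BrITL does not say which.

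The sequences shown first are the transcription start regions of 5 lncRNA genes that lay wholly inside these peaks. They were chosen from 68 such genes to show strong peaks (Lockd, Mir22hg and Chaserr), a snoRNA host gene (Snhg8) and a window that held the summit itself (Oip5os1). Each runs from 250 bases before to 50 after the start, 5′ to 3′ on the strand of the gene, from RefSeq sequence of GRCm38 (mm10). Capitals mark matches on either strand to the GC box GGGCGG, to CCAAT or to TATAAA. The Lockd window is chr6:134928842-134929141 (plus strand), 433 bp from the summit to the gene start, in the peak beside the cell-cycle inhibitor gene Cdkn1b.
Lockd: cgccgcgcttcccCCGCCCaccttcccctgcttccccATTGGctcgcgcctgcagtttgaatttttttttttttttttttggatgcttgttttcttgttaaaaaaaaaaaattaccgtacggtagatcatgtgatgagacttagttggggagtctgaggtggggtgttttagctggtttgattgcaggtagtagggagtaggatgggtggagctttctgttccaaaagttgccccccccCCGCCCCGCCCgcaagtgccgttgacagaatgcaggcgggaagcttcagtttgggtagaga
The Mir22hg window is chr11:75461289-75461588 (plus strand), in the peak beside Tlcd2.
Mir22hg: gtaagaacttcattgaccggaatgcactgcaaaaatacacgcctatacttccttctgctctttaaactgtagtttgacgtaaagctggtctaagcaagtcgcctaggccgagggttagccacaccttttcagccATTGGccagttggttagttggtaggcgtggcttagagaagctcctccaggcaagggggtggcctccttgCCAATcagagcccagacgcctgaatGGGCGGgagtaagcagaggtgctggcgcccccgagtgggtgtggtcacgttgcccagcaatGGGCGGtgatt
The Chaserr window is chr7:73558346-73558645 (minus strand), in the peak beside Chd2, a chromatin remodeller gene.
Chaserr: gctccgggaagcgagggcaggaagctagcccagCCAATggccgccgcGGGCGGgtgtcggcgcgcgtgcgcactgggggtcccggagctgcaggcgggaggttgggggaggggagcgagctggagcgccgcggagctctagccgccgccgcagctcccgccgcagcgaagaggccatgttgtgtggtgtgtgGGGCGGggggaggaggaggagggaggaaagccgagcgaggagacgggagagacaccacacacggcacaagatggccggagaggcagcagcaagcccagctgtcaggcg
The Snhg8 window is chr3:123508287-123508586 (minus strand), in the peak beside Prss12.
Snhg8: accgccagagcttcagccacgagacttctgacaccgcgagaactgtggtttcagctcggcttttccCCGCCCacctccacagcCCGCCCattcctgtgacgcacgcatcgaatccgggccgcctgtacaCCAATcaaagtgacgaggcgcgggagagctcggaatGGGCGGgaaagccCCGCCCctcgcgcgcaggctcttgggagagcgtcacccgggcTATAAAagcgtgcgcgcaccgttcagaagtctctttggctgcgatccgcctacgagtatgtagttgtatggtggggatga
The Oip5os1 window is chr2:119594046-119594345 (plus strand), in the peak beside Chp1.
Oip5os1: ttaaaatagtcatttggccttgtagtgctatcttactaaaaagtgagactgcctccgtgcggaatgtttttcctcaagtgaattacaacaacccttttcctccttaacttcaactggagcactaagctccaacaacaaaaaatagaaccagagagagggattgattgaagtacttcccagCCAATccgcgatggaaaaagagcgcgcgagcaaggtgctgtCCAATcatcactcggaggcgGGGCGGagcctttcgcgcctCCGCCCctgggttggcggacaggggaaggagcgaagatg

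The Lockd window held 3 matches to the GC box and 1 to CCAAT. The Mir22hg window held 2 of each. The Chaserr window had 72.3% G and C and held 2 GC boxes. The Snhg8 window held 4 GC boxes, and it was the only one of the 5 with a match to TATAAA. All 5 windows shown held both a GC box and CCAAT, while 52% and 38.7% of the 75 windows inside these peaks held each. The 5 were not picked by fold alone and do not represent the motif content of the rest. For instance, the Gm34847 window, in a 19.5-fold peak, was not shown and held no match. A match is a run of letters and not evidence that a factor binds there.

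Over all lncRNA genes, 75 start windows (68 genes) lay wholly inside 64 of the 494 peaks, and 10 windows held the summit. Their median G and C content was 57.3% (quartiles 50.7 and 62.7), between that of all 11588 lncRNA windows of the RefSeq table (48.3%) and that of the 612 windows inside other vehicle peaks (64%). The median number of CG dinucleotides was 15, against 4 in all windows and 24 in other peaks. The GC box GGGCGG was in 39 of the 75 windows (52%, 95% exact interval 40.2 to 63.7), against 16.3% of all windows and 63.2% of those in other peaks. CCAAT was in 38.7%, against 36.0% of all windows and 39.1% of those in other peaks. The E-box letters CACGTG were in 16% (8.55 to 26.3), against 5.89% of all windows and 12.3% in other peaks. The AP-1 letters TGANTCA were in 4% (0.833 to 11.2), against 9.31% of all windows and 7.03% in other peaks. TATAAA was in 13.3% (6.58 to 23.2), against 15.5% of all windows and 6.37% in other peaks. For the CRE letters TGACGTCA it was 2.67%, against 0.975% of all windows and 2.94% in other peaks. The letters were searched on both strands, and matches of different motifs could overlap. Some genes had several windows, so the windows are not independent.

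The miRNA genes inside these peaks are shown as named annotations, and a gene that lies in a peak need not be what the peak marks. There were 8 such genes, in 8 peaks, out of 1228 miRNA genes in the table. The same count was not made for the rest of the vehicle list. Below are 5 mature arms, from RefSeq (GRCm38), with the seed (bases 2 to 8) in capitals.
mmu-let-7i-5p: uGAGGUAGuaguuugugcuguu
mmu-miR-196b-5p: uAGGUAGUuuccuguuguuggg
mmu-miR-22-3p: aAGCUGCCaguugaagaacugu
mmu-miR-210-3p: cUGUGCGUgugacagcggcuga
mmu-miR-760-3p: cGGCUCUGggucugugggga
The 14 mature arms of the 8 genes had 14 distinct seeds, so no pair shared one. The summit lay inside Mirlet7i (chromosome 10, 122985640 to 122985724), the gene of a let-7 family member, where the fold was 10.3. It also lay inside Mir196b, a miRNA gene of the Hoxa cluster (chromosome 6, 52230081 to 52230165), where the fold was 9.53. The third gene that held a summit was Mir6236 (chromosome 9, 110281287 to 110281409), in the peak of lowest fold (3.38), where the background term described below was 25 fragments. Mir22 lay 1129 bp and Mir210, the gene of a miRNA known for its induction by hypoxia, 794 bp from the summit (folds 20.6 and 12.9).

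The authors' fold enrichment is pull-down over background at the summit, read here with 1 added to both and each pull-down fragment scaled to 0.8052. It ran from 3.38 to 27.0 over the 494 peaks, with a median of 10.7 (95% order-statistic interval 10.3 to 10.99). The lower and upper quartiles were 9.53 and 12.9. The median was 11.7 at protein-coding gene ends, 11.1 in gene bodies, 10.5 far from genes and 10.99 over the whole vehicle list. Peaks between genes thus lay near the list's median, a little below gene ends. The median width was 2706.5 bp (interval 2595 to 2854), against 2855 bp over the list, and the −log10 q of the caller ran from 18.5 to 98.5. The lowest value of the list is 18.5, so weaker sites were not among the peaks. A median of 47 pull-down fragments (range 36 to 163) lay at the summit, as recovered from the caller's values. Intervals here treat each peak as an independent draw, although neighbouring peaks share a locus. They carry no replicate error and no error of the fragment counts, and fragments copied by PCR are not independent molecules.

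The zone between genes, 1 to 20 kb from a protein-coding gene end, spans 368.505 Mb of the chromosomes and held 1.34 peaks per Mb. Gene ends held 46.5 per Mb, gene bodies 1.31 and more distant DNA 0.366. Density between genes near coding genes was therefore about that of gene bodies. The median distance to the nearest protein-coding gene end was 7191.5 bp (6536 to 7791). There were 62 peaks at 1 to 2 kb, 120 at 2 to 5 kb, 137 at 5 to 10 kb and 175 at 10 to 20 kb. The median fold hardly moved with distance, at 10.6, 10.7, 10.7 and 10.5 in these ranges. The strand of the neighbour was known for 377 peaks, of which 191 (50.7%, 45.5 to 55.8) lay on its start side and 186 on its end side.

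The bounds cut through a continuous set. Just inside the inner bound were the peaks beside Nrp1 (1001 bp, fold 16.8), Rpl3 (1007 bp, 18.5) and Ube2r2 (1015 bp, 15.1). Just outside it were those beside Bmpr2 (1000 bp, 13.7), Nsd2 (995 bp, 11.96) and Skil (992 bp, 20.7). At the outer bound, Arsi (19940 bp, 14.9), Col1a1 (19835 bp, 10.7) and Ccdc66 (19813 bp, 9.53) lay inside. Clic4 (20009 bp, 11.2), Arl4d (20013 bp, 11.2) and Krt42 (20022 bp, 10.02) lay outside. Although every summit lay outside protein-coding genes, 56 peaks (11.3%) were wide enough to cover the end of one. These had a median fold of 12.97 and a median width of 4843.5 bp, against 10.5 and 2583.5 bp for the other 438. Over the vehicle list outside the dense region, 64.3% of peaks covered such an end. The share was 96.7% at gene ends and 15.9% in gene bodies.

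The peak of highest fold (27.0, chromosome 19, 46498032 to 46505637) had its summit 1794 bp from Trim8, a ubiquitin ligase gene, and covered that gene's end. The next (24.3) was also the widest at 13799 bp and covered an end of Frmd8. Its summit lay 3890 bp from Frmd8 and 1604 bp from Neat1, the gene of the lncRNA that builds paraspeckles, and the peak overlapped Neat1. Next came the 21.9-fold peak beside Rdm1 with an snRNA gene and the 21.7-fold peak at Lockd, a lncRNA gene downstream of Cdkn1b. The peaks beside Eapp (21.2) and Arl4d (20.2) also had an snRNA gene beside the summit, and that beside Tlcd2 (20.6) lay in Mir22hg. A peak beside Scd2, a fatty acid desaturase gene, had a fold of 20.5.

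Further peaks at 19.5-fold lay beside Pecr, Piezo1, a mechanically gated channel gene, Wnt10b, a secreted signalling ligand gene, and Fam110a. Those beside Wnt10b and Fam110a overlapped no gene of any kind. Neither did the peaks beside Pkd2l1 (19.3), 19042 bp from it, Pard6b, a cell polarity gene, and Slc2a3, the gene of a glucose transporter (both 19.0). The peak beside Nr4a3, an orphan nuclear receptor gene, had a fold of 19.2 and covered its end, as did that beside 1700011L22Rik (19.0). In all, 263 peaks (53.2%, 48.7 to 57.7) overlapped no coding or non-coding gene of the table and had no gene within 1 kb of the summit. Their median fold was 10.3 and their median distance to a protein-coding gene 8.03 kb. The rule itself leaves out summits in or within 1 kb of a protein-coding gene, so the share depends on it. The same count was not made for the rest of the list. Peaks of high fold thus lay both with and without an annotated gene at the summit.

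Of the 494 summits, 188 (38.1%, 33.8 to 42.5) lay in or within 1 kb of a gene that is not protein-coding, against 20.4% of the vehicle list outside the dense region. Such DNA makes up 16.3% of the zone. The share was 37.7% for peaks far from coding genes, 17.7% at gene ends and 14.8% in gene bodies. It was 22.6% at 1 to 2 kb from the coding gene, 36.7% at 2 to 5 kb, 42.3% at 5 to 10 kb and 41.1% at 10 to 20 kb. Positions in a gene were less frequent, with 119 summits (24.1%) inside a non-coding gene. Over the vehicle list outside the dense region, 12.04% of summits lay inside one. By class this was 9.56% at gene ends, 7.97% in gene bodies and 30% far from genes. These classes differ in where genes lie, and the share of zone length is only a geometric background, so no test was made.

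**Figure D1:**
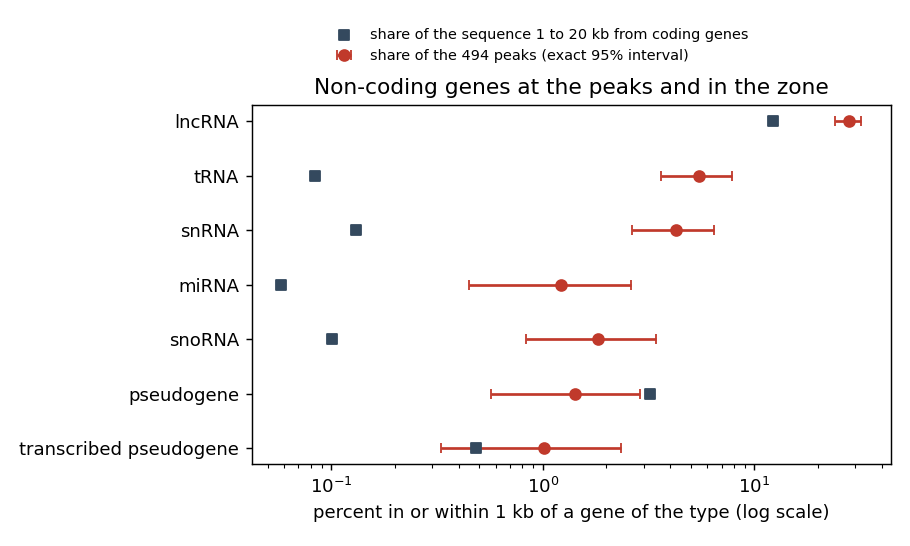
Share of the 494 vehicle peaks between genes whose summit lay in or within 1 kb of each kind of non-coding gene (points, with exact 95% intervals), beside the share of zone length that lies so near such a gene. The tRNA share (5.47%) and the snRNA share (4.25%) stand far above their length shares of 0.0840% and 0.131%, while pseudogenes not marked as transcribed lie below their length share (1.42% against 3.22%). Over the vehicle list outside the dense region the share near such pseudogenes was 0.674%.

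By kind of gene, lncRNA genes were near 138 summits (27.9%, against 12.2% of the zone's length). The lncRNA share was 17.1% over the vehicle list outside the dense region. It was 34.0% far from coding genes, 15.1% at gene ends and 12.5% in gene bodies. Genes of tRNA were near 27 (5.47%, 3.63 to 7.85) and snRNA genes near 21 (4.25%, 2.65 to 6.42), although they take up 0.0840% and 0.131% of the zone. For snoRNA genes it was 9 (1.82%, against 0.100%), for miRNA genes 6 (1.21%, against 0.0577%), and 1 summit lay near the cytoplasmic RNA gene Rn7s2. Over the vehicle list outside the dense region, 0.421% of summits lay near a snoRNA gene and 0.825% near a miRNA gene. The interval of the miRNA share (0.447 to 2.62) holds the list's share. Pseudogenes not marked as transcribed lay below their share of length, with 7 summits (1.42%, 0.572 to 2.90, against 3.22%). For transcribed pseudogenes it was 5 (1.01%, 0.329 to 2.35, against 0.482%), an interval that holds the share of length. Set against the vehicle list outside the dense region, both shares were higher, since the list had 0.674% and 0.303%. Far from coding genes these shares were 1.91% and 1.49%. Summits near a tRNA gene made up 0.679% of gene-end peaks (25 peaks), and there were 2 in gene bodies and 1 far from genes. For snRNA genes the shares were 0.244% at gene ends, 1.01% in gene bodies and 1.06% far away. Counted by gene, 49 of the 199 tRNA genes in the zone (24.6%) had such a summit within 1 kb, against 15 of 228 snRNA genes (6.58%), 11 of 191 snoRNA genes (5.76%) and 6 of 122 miRNA genes (4.92%).

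**Figure D2:**
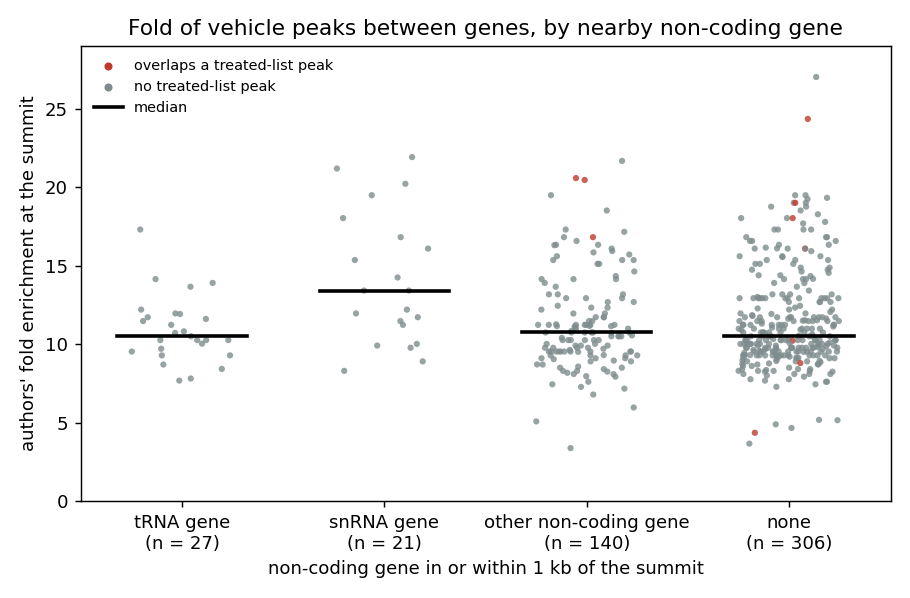
Authors' fold enrichment of each of the 494 peaks, grouped by the non-coding gene in or within 1 kb of the summit, with group medians as bars and peaks that overlap a treated-list peak in red. Peaks near snRNA genes have the highest median (13.4), and all groups overlap widely.

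Peaks near tRNA genes were of ordinary strength, with folds from 7.68 to 17.3 and a median of 10.5 (n = 27). The summit lay inside the tRNA gene in 2 cases and beside it in 25, at a median of 125 bp and at most 750 bp. After Frmd8, the widest peaks of all 494 lay beside Midn (11118 bp), Id1 (9200 bp), Bcl9l (9102 bp) and Osbp (8999 bp). The strongest near a tRNA gene, beside Osbp (17.3-fold, chromosome 19, 12004135 to 12013133), had its summit in the valine tRNA gene n-TVtac1. That peak overlapped 7 tRNA genes. Peaks at n-TYgta1, a tyrosine tRNA gene beside Trim55 (14.1), n-TPagg7, a proline tRNA gene beside Wnt11 (13.9), and n-TQttg6, a glutamine tRNA gene beside B4galnt2 (13.7), followed. On chromosome 13 the 3 peaks nearest to Abt1 had folds of 9.29, 8.42 and 7.82, each near a tRNA gene.

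Peaks near snRNA genes had a higher median fold. Their folds ran from 8.30 to 21.9 with a median of 13.4 (11.2 to 16.8, n = 21), against 10.5 (10.3 to 10.99) for the 306 peaks with no gene within 1 kb. The groups overlapped, and several of these peaks flank the same gene. The summit lay beside the gene in 19 cases, at a median of 317 bp and at most 659 bp, and inside it in 2. The gene Gm24950 had a summit on either side, at 174 bp (18.0-fold) and 320 bp (21.9-fold), and its neighbour Gm23971 had summits at 479 bp (11.5) and 659 bp (11.96). These 4 peaks beside Rdm1 (chromosome 11, 101640289 to 101647248) were the only group of 4 with the same nearest coding gene. Farther along the chromosome, Rnu2-10, a U2 gene, lay 152 bp from a 20.2-fold summit.

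**Figure D3:**
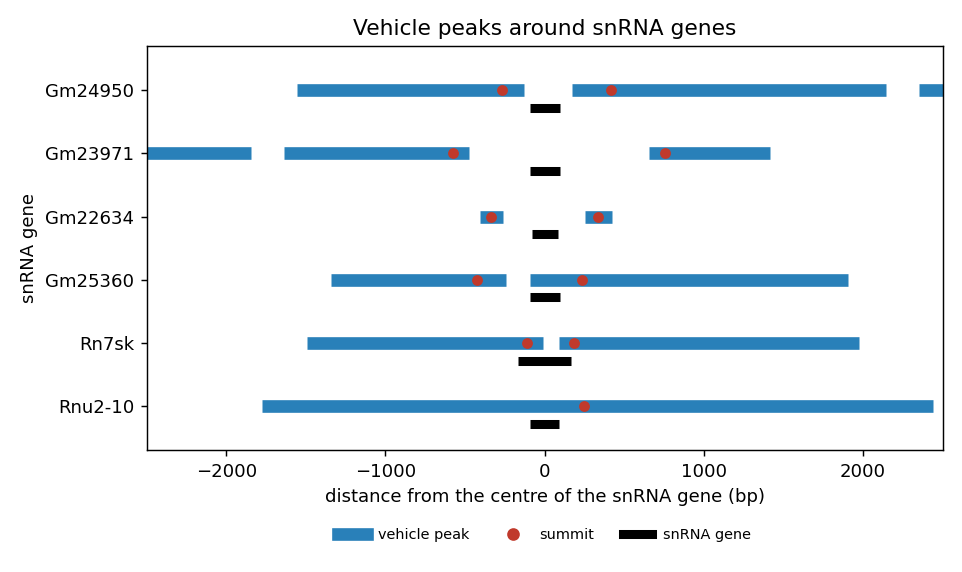
Vehicle peaks (blue bars) and their summits (red points) around snRNA genes (black bars), by distance in bp from the centre of the gene. Summits sit on both sides of Gm24950, Gm23971, Gm22634 and Gm25360, in and just past Rn7sk, and on 1 side of Rnu2-10.

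Gm22634 beside Eapp was flanked by a 9.77-fold and a 21.2-fold peak, of 148 and 169 bp, with summits 258 and 256 bp from the gene. Gm25360 beside Mreg had a summit on either side (10.0 and 13.4-fold), and the 13.4-fold peak overlapped most of the gene. On chromosome 1 the peaks at Gm25939 (19.5, summit 41 bp away) and Gm24497 (15.4, summit inside) lay beside Pecr, and that at Gm25541 (16.1) beside Wdr5. Peaks also lay at well-known structural RNA genes: Rnu3a, a U3 gene whose RNA acts in ribosomal RNA processing (16.8), Rnu11, a U11 gene of the minor spliceosome (13.4), and Rn7sk, whose 7SK RNA holds the elongation factor P-TEFb inactive (11.2 and 9.91). The U2 and tRNA families have near-identical copies, and the sources used here do not say how reads that match several copies were placed, so peaks over and beside such genes are uncertain. In 4 of the 27 pairs of adjacent peaks with summits within 5 kb, a small RNA gene lay wholly in the gap between the peaks.

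Named lncRNA genes with a summit inside or within 1 kb included Lockd (21.7), Mir22hg (20.6), Ftx, a gene of the X-inactivation centre that had 2 peaks (18.5 and 15.1), Chaserr (16.3) and AI506816 (15.4). There were 6 genes with an Snhg symbol, given to host genes of snoRNAs: Snhg8 (11.7), Snhg16 (11.2), Snhg15 (10.3), Snhg3 (9.77), Snhg7 (9.11) and Snhg1 (8.71). Peaks near a lncRNA gene had a median fold of 10.7, like the set as a whole (n = 138).

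Another vehicle summit lay within 10 kb of 170 peaks (34.4%, 30.2 to 38.8), against 17.6% of the vehicle list outside the dense region. The share was 14.2% at gene ends, 20.8% in gene bodies and 17.7% far from genes. The rule sets the distance to coding gene ends, where peaks were densest (46.5 per Mb), so these shares depend on it. With an outer bound of 10 kb the share was 40.4%, and with 50 kb it was 29.3%. How many of the neighbouring summits lay at gene ends was not counted. The 494 peaks had 441 nearest coding genes, of which 397 had 1 peak, 36 had 2, 7 had 3 and 1 had 4. Those with 3 were Abt1, Col1a1, Fcgr3, Gm40363, Gm52481, Klrb1c and Pigt. The 3 peaks of Fcgr3 were 142 to 235 bp wide with summits 3666 and 3851 bp apart, and 5 tRNA genes lay wholly in one gap between them. The 3 of Gm40363 were 137 to 162 bp wide, with summits 4162 and 4443 bp apart. Adjacent peaks with summits within 5 kb had a median gap of 306 bp, and whether they are 1 site called as several was not tested.

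Coding neighbours were read by lists of genes. Of all 21887 protein-coding genes, 441 (2.01%) were the nearest to one of the peaks. The immediate early list, of genes that answer growth signals within minutes, had 9 of 33 (10 peaks, median fold 14.5). The strongest were beside Nr4a3 (19.2), Egr1, a zinc finger factor gene (18.8), Ier5 (16.1) and Ier3 (15.9). The TGF-beta and SMAD list had 8 of 23 (9 peaks, median 12.2), among them Id1 (15.6), an inhibitor of bHLH factors, Smad7, an inhibitor of the pathway (12.9 and 10.7), the coreceptor gene Tgfbr3 (12.3) and Ski, a corepressor gene (12.3). Distances from these genes ran from 1072 bp (Egr1) to 19033 bp (Fos).

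The fibroblast matrix and cytoskeleton list had 7 of 41 genes (9 peaks, median 12.9). Sparc, a matrix glycoprotein gene (15.6), Timp2, a metalloprotease inhibitor gene (15.4), and Actg1, a gamma actin gene (15.1), had 1 peak each. Col1a1, which encodes type I collagen, had 3 at 2218, 7835 and 19835 bp (12.9, 14.1 and 10.7). The mesenchymal transcription factor list had 5 of 63 (5 peaks, median 9.53). The strongest of these were beside Klf9 (15.4), Snai1 (11.2), Sp1 (9.53) and Runx3 (9.31). The p53 list had 3 of 25 (median 10.3), which were Phlda3 (12.9), Sesn2 (10.3) and Gadd45g (9.29). The growth loci list had 3 of 32 (5 peaks, median 11.2), which were Hbegf, Socs3 and Ccne1. Of 17 YAP and TEAD genes Ankrd1 had a peak (15.1), and of 34 ATR and replication fork genes 0 had one. The lists and members were chosen with results of these data known, so the counts are a description. In all, 42 peaks (8.50%) lay beside a listed gene.

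Of the 494 peaks, 10 (2.02%, 0.975 to 3.69) overlapped a peak of the treated list by at least 1 bp, against 2.61% of the vehicle list outside the dense region. The share was 3.01% at gene ends, 2.09% in gene bodies and 1.49% far from genes. The treated list has 491 peaks and a lower limit of 3.38 in −log10 q, so the lists differ in length and limit and a vehicle peak without a partner does not show that ends were absent under treatment. Of the 10, 7 were among the 131 peaks at or above the upper quartile of fold (5.34%, 2.18 to 10.7), and 3 among the other 363 (0.826%, 0.171 to 2.40). A wider peak has more room for an overlap of 1 bp, and this split takes no account of width. The median width was 3377 bp for peaks at or above the list's median fold, against 2706.5 bp for all 494. The same split was not made for the rest of the list.

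The 7 lay beside Frmd8 (24.3), Tlcd2 (20.6), Scd2 (20.5), Slc2a3 (19.0), Midn (18.0), Cct8l1 (16.8) and Spsb2 (16.1). The peak of Midn, a gene for a nuclear protein, was 11118 bp wide and covered an end of Midn and of Cirbp, a cold-induced RNA-binding protein gene. The peak of Spsb2 covered Spsb2 and Tpi1, a gene of glycolysis. The treated peaks at these 7 places were 136 to 993 bp wide with folds of 5.16 to 5.84. Folds of the 2 lists rest on different backgrounds and are not compared. The other 3, beside Adgre5 (10.2), 2610044O15Rik8 (8.80) and Gm14496 (4.36), were 125 to 249 bp wide.

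The background term of the caller, which is the expected coverage at the summit from input or genome, was 2.32 fragments for 308 peaks (62.3%), the lowest value it can take. It was at least 2 times that in 24 (4.86%, 3.14 to 7.14), against 2.21% of the vehicle list outside the dense region. It was 0.923% at gene ends, 2.17% in gene bodies and 9.57% far from genes. Of the 24, 11 were under 400 bp wide and 3 lay on X or Y. They had a median fold of 7.48 and held 16 of the 26 peaks with a fold under 8.

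The highest terms were beside Tra2a (26 fragments, fold 4.90), Cspg5 (25, 3.38), Apbb1ip (23, 3.67) and Csf2ra (22, 4.66), followed by Gm14496, Myl12b and Sfi1 (19 each). The peaks of Cspg5, Apbb1ip and Gm14496 had the 3 lowest folds. Of the 10 peaks that overlapped a treated peak, Adgre5 (8 fragments) and Gm14496 were among these 24. Among the 27 peaks near tRNA genes 3 had a high term, and among the 21 near snRNA genes 0. The fold has this term in its denominator, so a low fold at a high term follows in part from the formula. What raised the term was not tested.

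**Figure D4:**
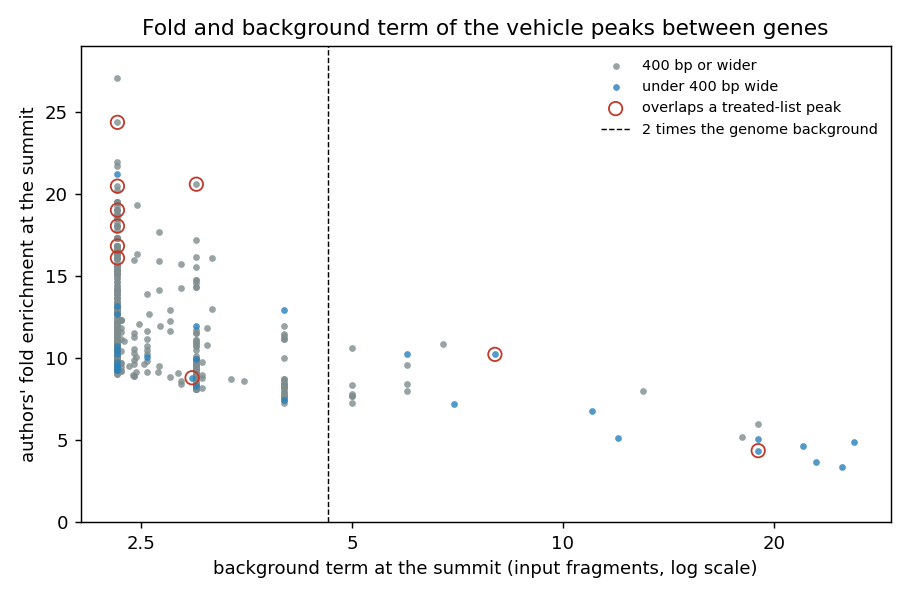
Authors' fold enrichment against the background term for the 494 peaks, on a log axis of fragments. Peaks with a term of at least 2 times the genome background lie at low fold, at most 10.8, and many are narrow.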

How the data were processed

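BrITL pull-downs and inputs of 6 samples were made into 2 peak lists by the authors, 1 for each condition. Names of the peaks say that all pull-downs were set against all inputs, so replicates were pooled. Per the submitters' processing notes, the build was mm10 and the tools were MACS2 2.1.0, Picard 1.141, SAMtools 0.1.19, STAR 2.5.2a and bcl2fastq 2.17.1.14, with no roles or settings. The deposited fold is a ratio of pull-down to background, the deposited −log10 p and −log10 q values are the caller's, and the deposited score is the whole part of 10 times −log10 p in every row. Read totals are not given, so depth per sample is unknown.

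Gene positions, start windows and miRNA sequences came from RefSeq (GRCm38.p6), with 21887 protein-coding and 28056 other genes. Strand was known for 17492 of the former. The pull-down fragments and background term at each summit were recovered from fold and p (tolerance 0.02 of a whole step). Shares have exact Clopper-Pearson intervals at 95%, and medians have order-statistic intervals. No tests were run, since pooled lists leave no replicates. The recovery of coverage was tested on simulated data. Python 3.11.15, NumPy 2.4.6, SciPy 1.17.1, pandas 2.3.3 and matplotlib 3.10.9 were used.

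The members and lists were chosen with earlier results of these data known. The rule for names was the 15 peaks of highest fold, those overlapping a treated peak, genes nearest to 3 or more peaks, the 15 strongest beside a small RNA or named non-coding gene, the 5 widest, the 3 of lowest fold, the 5 of highest background term, 3 on each side of each bound, and up to 4 per gene list. Other non-coding genes, the growth loci genes and the genes without a gene at the summit were named after their values were seen. The alternatives tried were other distance bounds, gene sets, summit definitions, fold limits and overlap rules.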

Additional observations from a re-analysis of the deposited data

How the results depend on the processing

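Of 74 values recomputed under alternatives, 61 stayed inside the 95% interval of the value reported and 13 lay outside. For the number of peaks, the limit was instead within 1.5 times of the value reported. With an outer bound of 10 kb there were 319 peaks, the median distance was 4456 bp, 40.4% had another summit within 10 kb and 2.82% had a high background term. With an outer bound of 50 kb the median distance was 10959.5 bp and 29.3% had another summit within 10 kb, and with an inner bound of 2 kb the median distance was 8178 bp. Among peaks at or above the list's median fold there were 220, with a median fold of 13.2, a median width of 3377 bp and 0% with a high background term (upper limit 1.66%). With the dense region kept in, 9.44% had a high background term. Within 50 kb, 72.3% had another summit. The share of summits near a non-coding gene ran from 36.0% to 40.5% over all settings. The share that met a treated peak was 1.01% with treated peaks of −log10 q of at least 5, and ran up to 3.18% among the 220 peaks of higher fold. Leaving out peaks with a high background term, or keeping 1 peak per cluster within 10 kb, was added after seeing the data. The latter left 451 peaks, of which 24 were near a tRNA gene and 13 near an snRNA gene.

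No paired analysis was possible because each list pools its replicates, and for the same reason no replicate was left out. Depth per sample is unknown, so sites too weak for the list's limit of 18.5 in −log10 q are not described.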
